A study of Mus musculus with 30 samples.

Results

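Primary mouse microglia that had been kept for 8 h in culture without amyloid-beta were compared with microglia at 0 h by RNA sequencing, in wild-type (WT) cells. The comparison rests on 6 of the 30 libraries of the series: the 3 whose entry in the condition row of the deposited table was WT 8h, and the 3 whose entry was WT 0h. The other libraries cover the later times with amyloid-beta, the 2 h time, and the same conditions in cells labelled PD-1 KO, which lack the inhibitory receptor encoded by Pdcd1 by their label. Both WT groups carry the genotype WT and the treatment entry "no", and differ in time. The cells came from brain, were grown as primary cultures for several days and were then shaken off to harvest them. Which medium the untreated cultures received, the strain and age of the mice, and whether the 3 libraries of a group came from separate animals or cultures are not given in the sources used here, so the p-values rest on library-to-library spread, which may be technical.

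Microglia are the resident macrophages of the brain. They sense microbial and damage-related molecules through Toll-like receptors, which release the NF-κB transcription factors from their IκB inhibitors and so switch on cytokine, chemokine and adhesion genes, among them genes for the inhibitors themselves. Interferons act through a separate set of factors that bind an element in the promoters of antiviral genes. In culture, microglia are known to lose part of the expression profile they have in the brain.

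The WT 8h libraries hold between 4227019 and 26702316 reads over the genes in the table, and the WT 0h libraries between 4989566 and 7927720, as recovered from the deposited values. Those values are gene counts that had been divided by a size factor for each library, with a floor of 1, and are called the signal here. WT 8h replicate 3 was the shallowest of all 30 libraries and had the most genes at the floor, 452, against 142 to 253 in the other 5 of the 6. The 8 h libraries carry title numbers from another run of numbers (1784 to 1786) than the 0 h libraries (1707 to 1709), and no library of either time carries a number from the other run. Time and title-number series cannot be told apart in these data. The 16 pan-microglia and macrophage genes on the marker list summed to a signal of 150067 to 158363 in WT 8h libraries and 136984 to 149200 in WT 0h libraries, so the label of microglia held in both. None of the 13 markers of peripheral myeloid cells, lymphocytes and red cells is in the table, and they were not analysed here. Pdcd1 was at the floor in all 6 libraries.

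Of 13722 genes tested, 411 were higher and 419 lower in WT 8h than in WT 0h libraries, at an adjusted p below 0.05 (limma on log2 of the signal plus 1, Benjamini-Hochberg adjustment over all genes tested). This is 6.05% of the genes tested, 3% higher and 3.05% lower. Counts of list members in this comparison are to be read against these shares. A difference of more than 2-fold was fitted for 100 of the higher and 174 of the lower genes, and the median difference over all genes tested was -0.016 on the log2 scale. The 2 groups did not overlap for 12.5% of the genes tested with WT 8h above WT 0h, and for 13.5% with WT 8h below. No overlap was also a condition for the genes named as the largest increases and decreases, so it adds nothing for those. Most members of the NF-κB list were higher (15 of 23) and most of the cell cycle list lower (21 of 38). Fewer passed among cytokines (9 of 24 higher, 1 lower), interferon-induced genes (9 of 30 higher), MHC class I genes (4 of 18 higher, 2 lower), cytoskeleton genes (8 of 29 lower) and genes of cholesterol synthesis (5 of 23 lower). In bulk samples, fewer cells of a type and less RNA per cell cannot be told apart. The count fell to 399 without WT 8h replicate 3, to 445 without WT 0h replicate 2 and to 519 without WT 0h replicate 3, and to 440 when only the 6 libraries were fitted.

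**Figure D1:**
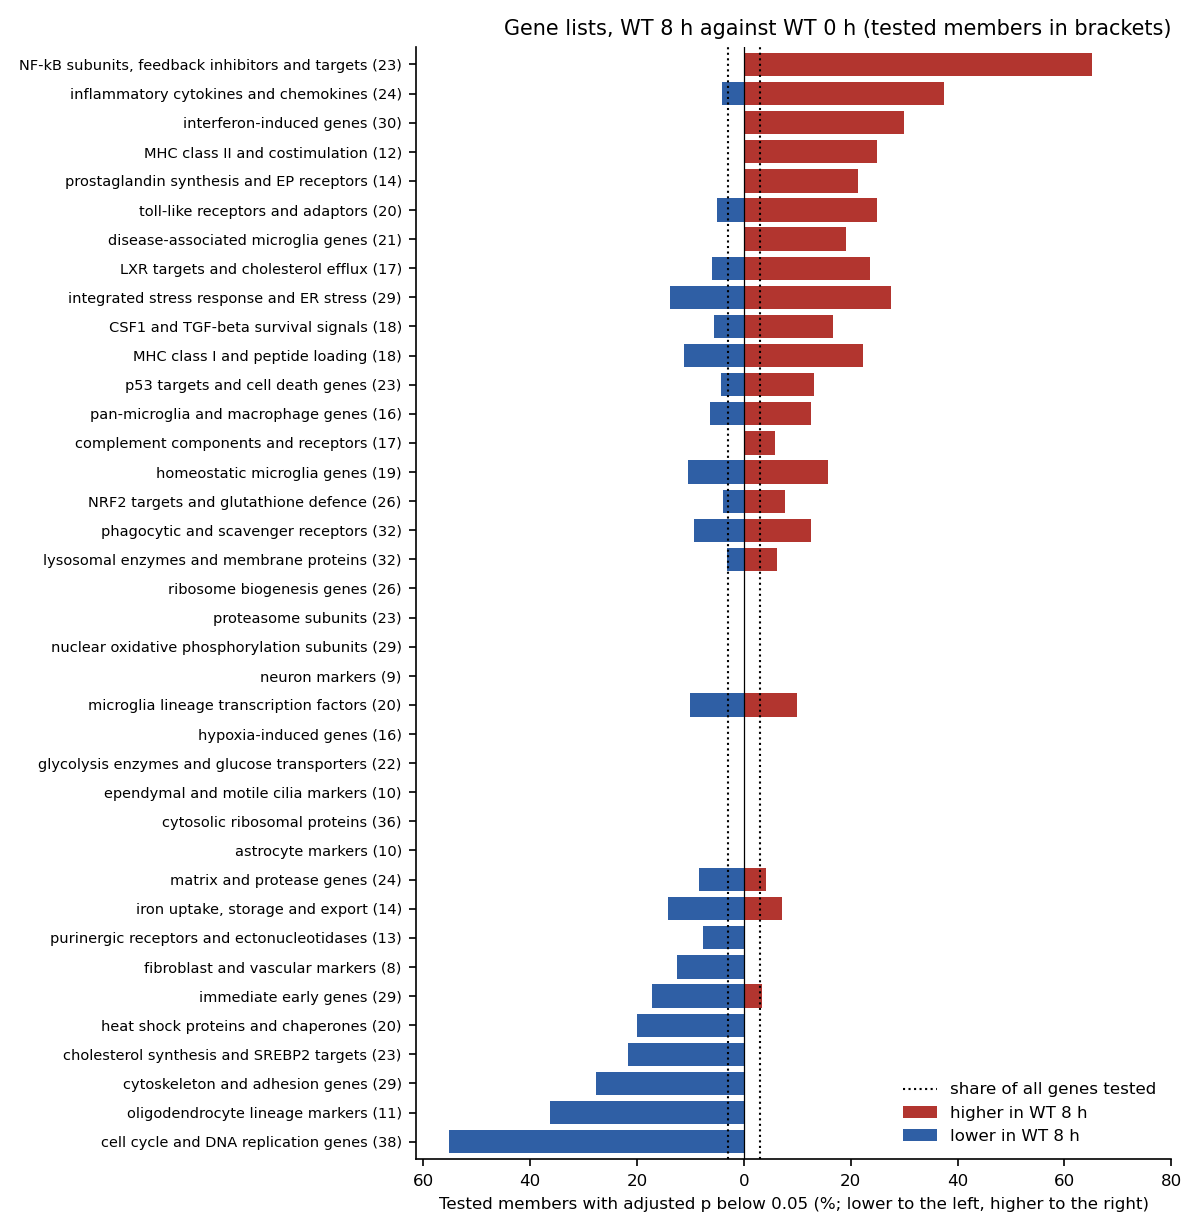
Share of the tested members of each gene list (horizontal axis, %) that were higher in WT 8h (red, to the right) or lower (blue, to the left), with the number of tested members in brackets and dotted lines at the share of all genes tested, 3% higher and 3.05% lower. The NF-κB list has the longest bar to the right, with 15 of 23 members higher, and the cell cycle list the longest to the left, with 21 of 38 lower.

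The NF-κB list was the one with the largest share of members higher after 8 h. Of its 23 members in the table, 15 were higher, none was lower and 8 did not pass, where 3% of all genes tested were higher. The median difference of the list was 0.70 on the log2 scale, against -0.02 over all genes, and 22 of the 23 lay above 0. Leaving out any 1 of the 6 libraries left 14 or 15 members higher.

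The 15 included members that restrain the pathway. Nfkbia encodes IκBα, which holds NF-κB in the cytoplasm. Its signal was 909, 875 and 882 in WT 8h libraries, against 436, 394 and 416 in WT 0h libraries. The groups did not overlap, and the difference was 1.10 ± 0.11 on the log2 scale (SE, limma adjusted p = 1.9e-07). Tnip3, at chr6:65590398-65634040 on the mouse GRCm38 assembly, encodes a protein that binds the ubiquitin-editing enzyme A20 and dampens NF-κB signalling. It reached 383, 392 and 361 in WT 8h libraries, against 134, 193 and 129 in WT 0h libraries, a difference of 1.34 ± 0.15 (limma adjusted p = 5.66e-07), again with no overlap. Tnfaip3, the gene for A20 itself, rose by 0.57 on the log2 scale, Nfkbie, which encodes another IκB protein, by 0.93, and Tnip1 by 0.46.

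Both promoters are shown because these genes had the largest differences among NF-κB list members whose promoter held an NF-κB motif. The sequences are the 250 bases before the start of the gene, from RefSeq on GRCm38.p6, written in the direction of transcription with the NF-κB motif in capitals. The first is chr6:65590148-65590397 on the plus strand and the second chr12:55492648-55492897 on the minus strand. The motif begins 54 bases before the start of Tnip3 and 29 bases before the start of Nfkbia.
Tnip3: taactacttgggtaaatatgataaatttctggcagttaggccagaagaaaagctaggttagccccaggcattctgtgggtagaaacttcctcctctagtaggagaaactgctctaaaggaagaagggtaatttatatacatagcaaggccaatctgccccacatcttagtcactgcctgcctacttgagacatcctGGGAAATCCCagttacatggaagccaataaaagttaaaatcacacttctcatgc
Nfkbia: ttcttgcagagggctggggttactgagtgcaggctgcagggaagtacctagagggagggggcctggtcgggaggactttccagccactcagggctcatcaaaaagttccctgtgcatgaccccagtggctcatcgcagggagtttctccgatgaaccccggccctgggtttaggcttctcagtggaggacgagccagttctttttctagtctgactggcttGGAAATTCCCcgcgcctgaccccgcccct
The NF-κB motif, searched on both strands, occurred in the promoter windows of 9 of the 12 higher members that have a window in the table (75.0%). It occurred in 10 of the 18 tested members that have one (55.6%), and in 8.2% of the windows of all 27025 genes. A window runs from 250 bases before to 50 bases after the start. A match is a description of these letters and does not show that a factor bound there.

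The transcription factors and kinases of the list split into those that rose and those that did not pass. Bcl3 encodes an atypical IκB protein that works in the nucleus, and its signal was 139, 126 and 196 in WT 8h libraries, against 30.1, 53.3 and 39.7 in WT 0h libraries. Its lowest 8 h value was more than the highest 0 h value, and the difference was 1.89 ± 0.21 (limma adjusted p = 5.66e-07). Ikbke, the gene for the kinase IKKε, reached 559, 622 and 815 in WT 8h libraries, against 160, 215 and 177 in WT 0h libraries, a difference of 1.84 ± 0.15 (limma adjusted p = 3.47e-09). Nfkbiz, another nuclear IκB gene, rose by 1.42 on the log2 scale, and the subunit genes Relb and Nfkb2 by 0.90 and 0.82. The remaining subunit genes did not pass: Rela differed by 0.14 (adjusted p = 0.37), Nfkb1 by 0.27 (adjusted p = 0.0602) and Rel by 0.65 (adjusted p = 0.209). Ikbkb, which encodes the main catalytic kinase of the pathway, differed by -0.01 (adjusted p = 0.955).

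Among targets, Icam1 encodes an adhesion molecule for leukocyte integrins and lies at chr9:21015940-21028814. Its signal was 778, 711 and 707 in WT 8h libraries, against 242, 244 and 258 in WT 0h libraries. That is a difference of 1.56 ± 0.11 (limma adjusted p = 1.2e-09), with little spread within either group. Cd40, a costimulatory receptor of the TNF receptor family, was low throughout, at 67.7, 65.0 and 67.7 in WT 8h libraries, against 30.1, 14.4 and 23.1 in WT 0h libraries, and rose by 1.58 ± 0.28 on the log2 scale. Birc3, which encodes an inhibitor of apoptosis, rose by 1.07, Tnfaip2 by 0.70 and Sod2, the mitochondrial superoxide dismutase, by 0.60. Ptgs2, the gene for cyclooxygenase-2, had 44.8, 53.4 and 77.7 in WT 8h libraries and 23.6, 65.6 and 46.3 in WT 0h libraries. These ranges overlap and the gene did not pass (difference 0.45, adjusted p = 0.613).

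**Figure D2:**
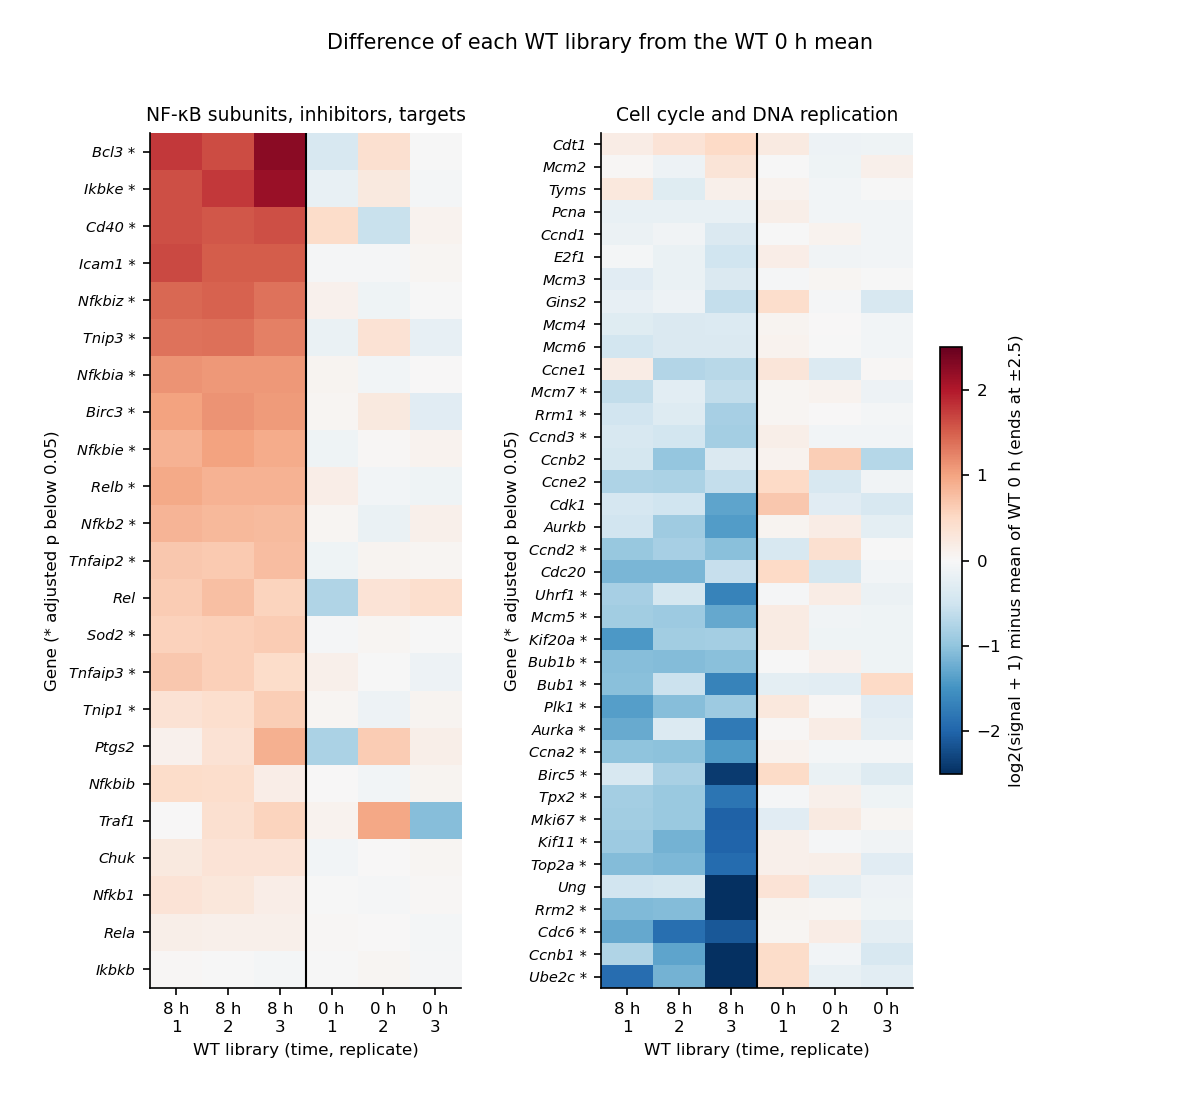
Each cell is log2 of the signal plus 1 in 1 WT library minus the mean of the 3 WT 0h libraries, for the tested members of the NF-κB list (left) and the cell cycle list (right), with the 8 h libraries left of the 0 h libraries and an asterisk at an adjusted p below 0.05. The NF-κB panel is red in the 8 h libraries for 22 of 23 genes on average, and the cell cycle panel is blue for 35 of 38, with the deepest blue in WT 8h replicate 3.

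Genes of secreted signals changed as well. Of 24 cytokine and chemokine genes tested, 9 were higher and 1 was lower after 8 h, with a list median of 0.40 on the log2 scale. Tnf, at chr17:35199367-35202007, encodes the cytokine TNF and reached 664, 741 and 644 in WT 8h libraries, against 224, 224 and 187 in WT 0h libraries. The difference was 1.69 ± 0.15 (limma adjusted p = 1.27e-08), and the groups were well apart. Il1b, the gene for interleukin-1β, had 73.1, 55.7 and 60.2 in WT 8h libraries, against 19.7, 8.2 and 9.92 in WT 0h libraries, a difference of 2.32 ± 0.33 (limma adjusted p = 3.98e-05). Its sister gene Il1a rose by 1.41 ± 0.32 on the log2 scale (limma adjusted p = 0.0069).

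Chemokine genes did not all move one way. Cxcl2, which encodes a neutrophil attractant, had 121, 125 and 145 in WT 8h libraries, against 15.7, 24.6 and 9.92 in WT 0h libraries, the largest increase on the list at 2.97 ± 0.33 (limma adjusted p = 5.66e-07). Ccl5, whose product attracts T cells and monocytes, had 71.0, 41.1 and 72.7 in WT 8h libraries and 15.7, 16.4 and 11.6 in WT 0h libraries, a rise of 1.98 ± 0.34 (limma adjusted p = 0.000418). Cxcl16 rose by 1.08, Ccl9 by 1.05 and Ccl3 by 0.65 on the log2 scale. Ccl2, the gene for a monocyte attractant, went the other way, with 4.37, 16.1 and the floor of 1 in WT 8h libraries, against 41.9, 26.7 and 31.4 in WT 0h libraries. Its fitted difference of -2.57 ± 0.49 (limma adjusted p = 0.00131) depends on the number added before taking logs and became -1.42 with 10 in place of 1, and it did not pass with only the 6 libraries fitted or with voom on the recovered reads. Ccl4 had 1415, 1178 and 973 in WT 8h libraries and 1274, 697 and 641 in WT 0h libraries, which overlap, and it did not pass (adjusted p = 0.219). The genes Il6, Il10 and Nos2 were not analysed here.

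Among the sensors, Tlr2, at chr3:83836272-83841824, encodes a receptor for bacterial lipoproteins and had 819, 765 and 745 in WT 8h libraries, against 332, 295 and 301 in WT 0h libraries. The difference was 1.33 ± 0.10 (limma adjusted p = 1.52e-09), with the groups far apart. Of the 20 receptor and adaptor genes tested, 5 were higher and 1 was lower, and 3 were higher without WT 8h replicate 3. Irak2, a kinase of the pathway, rose by 0.66 and the adaptor gene Ticam2 by 0.51 on the log2 scale, while Tlr9, at 0.98, lost its call without WT 8h replicate 3 (0.84 without it). Ticam2 did not pass when only the 6 libraries were fitted. The member that fell was Cd14, the co-receptor that hands lipopolysaccharide to TLR4, with 2064, 1817 and 1640 in WT 8h libraries, against 3344, 3016 and 3208 in WT 0h libraries, a difference of -0.80 ± 0.13 (limma adjusted p = 0.000265). Tlr4 itself had 971, 950 and 1116 in WT 8h libraries and 970, 1083 and 995 in WT 0h libraries, a difference of -0.01 (adjusted p = 0.982). Ptger4, the gene for the EP4 prostaglandin receptor, rose to 485, 499 and 471 in WT 8h libraries, against 174, 203 and 188 in WT 0h libraries (1.36 ± 0.12, limma adjusted p = 1.27e-08).

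Uptake genes showed small differences in both directions. Of 32 phagocytic and scavenger receptor genes, 4 were higher and 3 lower, with a median of 0.09 on the log2 scale, and 2 were higher without WT 8h replicate 3 or without WT 0h replicate 2. Fcgr4, a receptor for antibody, had 477, 395 and 506 in WT 8h libraries, against 311, 287 and 312 in WT 0h libraries (0.59 ± 0.14, limma adjusted p = 0.0114). Colec12, a scavenger receptor, had 2189, 2292 and 2191 in WT 8h libraries, against 3244, 3459 and 3366 in WT 0h libraries (-0.59 ± 0.10, limma adjusted p = 0.000332). Of 17 complement genes 1 was higher (5.9%), where 3% of all genes tested were higher. It was C3 (0.81), whose groups overlap, and its call was lost without WT 8h replicate 1 (0.73) or 2 (0.72) or WT 0h replicate 1 (0.59) or 3 (0.75). Of 32 lysosomal genes 9.4% passed, against 6.05% of all genes tested. The protease gene Ctsh (0.35) and Cln3 (0.29) were higher and Gusb, the gene of β-glucuronidase, was lower (-0.44). Ctsh passed in 1 of the 6 fits that left out a WT 8h or WT 0h library, the one without WT 8h replicate 2 (0.37), and Cln3 and Gusb in none, at 0.25 to 0.31 and -0.49 to -0.39.

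**Figure D3:**
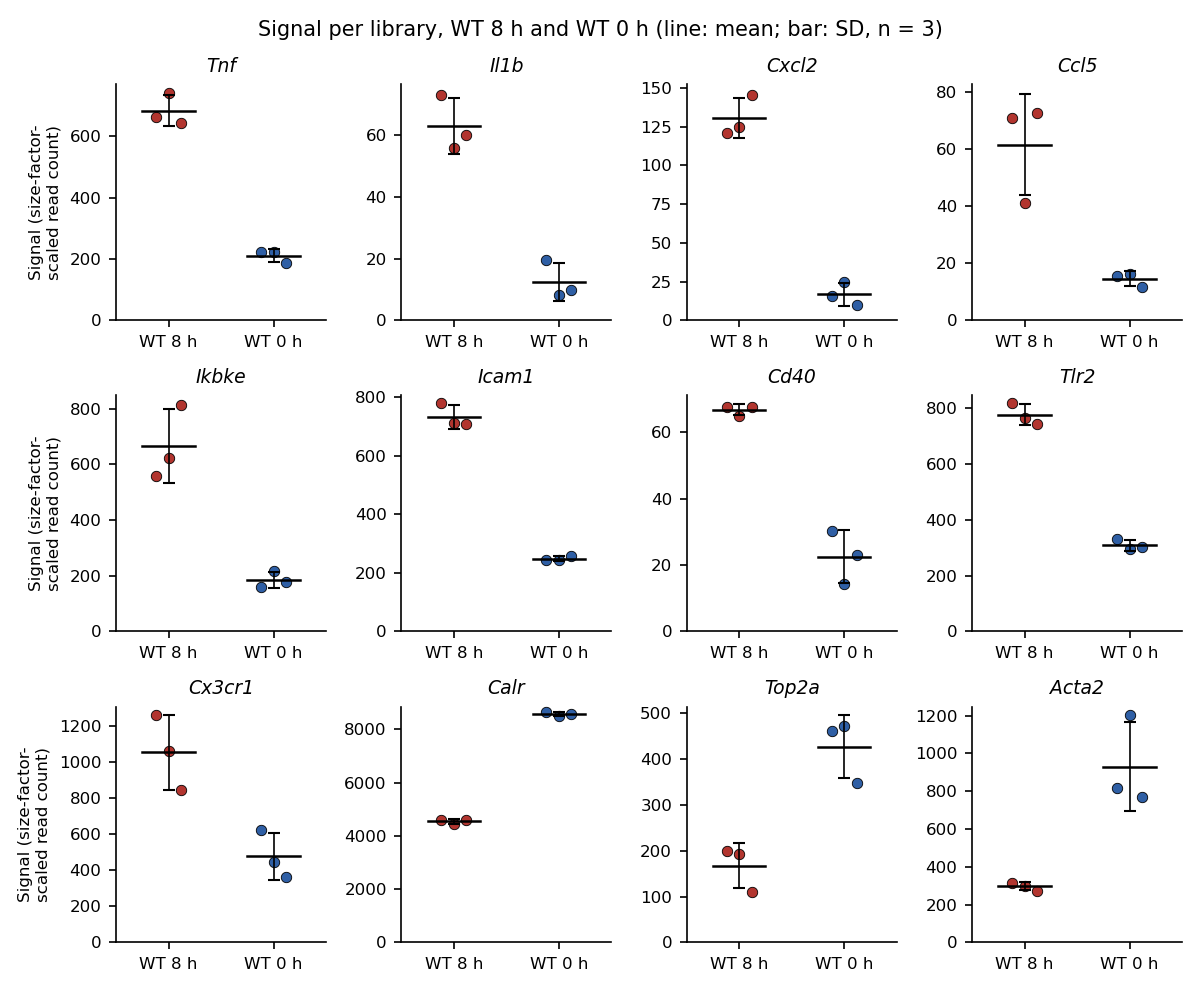
Signal in each of the 6 libraries for 12 genes, with WT 8h (red) left of WT 0h (blue), a line at the mean and a bar of 1 SD on either side (n = 3 each), on axes that start at 0. In each of the 12 panels the points of the groups do not overlap, with 9 genes higher in WT 8h and Calr, Top2a and Acta2 lower. Over all genes tested, 12.5% had WT 8h wholly above WT 0h and 13.5% wholly below.

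Of 30 interferon-induced genes tested, 9 were higher, none was lower and 21 did not pass. The list median was 0.38 on the log2 scale, with 22 of 30 above 0. The 9 included the antiviral genes Rsad2, Ifit3, Zbp1, Bst2 and Ifitm3, while Stat2 and Irf9, which encode factors that carry the interferon signal, differed by -0.14 and -0.11 and did not pass. The count depended on single libraries: it was 3 without WT 8h replicate 1 and 4 without WT 0h replicate 3.

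The largest of these increases was that of Ifi27l2a, with 560, 326 and 486 in WT 8h libraries, against 174, 121 and 89.2 in WT 0h libraries. The groups did not overlap and the difference was 1.84 ± 0.32 (limma adjusted p = 0.000472). Rsad2, which encodes the antiviral enzyme viperin, had 347, 299 and 186 in WT 8h libraries, against 70.8, 79.97 and 102 in WT 0h libraries. Its difference of 1.67 ± 0.40 (limma adjusted p = 0.011) became 1.49 without WT 8h replicate 1, with an adjusted p of 0.0557. Ifit3 had 495 in WT 8h replicate 1 and 218 and 178 in the other 8 h libraries, against 98.3, 129 and 117 in WT 0h libraries. Its difference of 1.22 fell to 0.78 without that library and then did not pass (adjusted p = 0.135), nor did it without WT 0h replicate 1 (1.11), and a near-identical neighbour gene makes its counts uncertain. Cxcl10, the gene of a chemokine for T cells that interferon and NF-κB both induce, had 52.4, 36.1 and 37.6 in WT 8h libraries, against 14.4, 18.5 and 11.6 in WT 0h libraries, a difference of 1.45 ± 0.26 (limma adjusted p = 0.000688). With voom on the recovered reads, its adjusted p was 0.0659.

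The promoters of Rsad2 and Cxcl10 are shown as the pair with the largest differences among interferon list members whose sequence before the start held the interferon-stimulated response element, TTTCNNTTT on either strand. They are chr12:26456453-26456702 and chr5:92348890-92349139, both on the minus strand of GRCm38.p6 from RefSeq, with the element in capitals. It begins 120 and 107 bases before the start of Rsad2 and 212 bases before the start of Cxcl10.
Rsad2: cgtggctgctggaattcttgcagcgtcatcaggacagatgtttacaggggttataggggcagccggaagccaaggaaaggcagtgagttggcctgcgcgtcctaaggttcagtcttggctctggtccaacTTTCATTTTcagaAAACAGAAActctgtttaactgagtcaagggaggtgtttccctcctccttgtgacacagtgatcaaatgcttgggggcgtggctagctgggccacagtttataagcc
Cxcl10: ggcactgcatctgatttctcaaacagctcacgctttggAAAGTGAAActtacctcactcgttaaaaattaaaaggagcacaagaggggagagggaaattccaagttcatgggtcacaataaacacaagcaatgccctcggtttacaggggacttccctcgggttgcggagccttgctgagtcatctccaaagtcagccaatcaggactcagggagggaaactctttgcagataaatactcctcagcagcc
The element occurred in the window of each of the 6 higher interferon list members that have one (100.0%), in 17 of the 21 tested members that have one (81%) and in 10.7% of the windows of all genes.

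Of the 18 MHC class I and peptide loading genes, 4 were higher, 2 were lower and 12 did not pass. MHC class I molecules present peptides to cytotoxic T cells at the cell surface. H2-Q4, at chr17:35379617-35384674, had 875, 739 and 970 in WT 8h libraries, against 338, 314 and 370 in WT 0h libraries, a difference of 1.33 ± 0.12 (limma adjusted p = 2.08e-08). H2-K1 had 10721, 9161 and 11302 in WT 8h libraries, against 6109, 5446 and 5693 in WT 0h libraries, and rose by 0.85 on the log2 scale. B2m, the light chain of all class I molecules, rose by 0.55 and H2-D1 by 0.46. Class I genes share long stretches of sequence, so the split of reads between them is uncertain. Calr, the gene of the chaperone calreticulin, had 4591, 4449 and 4595 in WT 8h libraries, against 8642, 8498 and 8582 in WT 0h libraries, a difference of -0.92 ± 0.10 (limma adjusted p = 3.03e-07). Pdia3, which encodes its partner in peptide loading, fell by 0.42.

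Surface molecules that signal to T cells were also among the genes that rose. Cd274, which encodes PD-L1, the ligand of PD-1, had 604, 593 and 737 in WT 8h libraries, against 334, 406 and 441 in WT 0h libraries. The difference was 0.71 ± 0.13 (limma adjusted p = 0.000696) without overlap. Icosl, the gene of another ligand for T cells, had 124, 125 and 105 in WT 8h libraries, against 53.7, 30.8 and 57.8 in WT 0h libraries, and rose by 1.35 ± 0.21 on the log2 scale. Lgals9, which encodes galectin-9, had 1169, 909 and 1065 in WT 8h libraries and 1074, 935 and 906 in WT 0h libraries, a difference of 0.11 (adjusted p = 0.76). No MHC class II gene passed. Cd74, the class II chaperone, had 78.6, 65.0 and 70.2 in WT 8h libraries and 17.03, 36.9 and 16.5 in WT 0h libraries. It did not pass (limma adjusted p = 0.0562). WT 2h replicate 1 stood apart at 828 and enters the spread that all groups share, and its effect on this result was not tested.

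Genes that define microglia showed no common direction. Of 19 homeostatic microglia genes, 3 were higher and 2 lower, with a median of 0.09 on the log2 scale. The lower ones, the early response genes Egr1 (-0.39, limma adjusted p = 0.0273) and Jun (-0.34, limma adjusted p = 0.0475), depended on single libraries: the count of lower members was 1 without WT 8h replicate 2 or WT 0h replicate 3, and 0 without any 1 of the other 4 libraries. Cx3cr1, the receptor through which neurons signal to microglia with fractalkine, had 1262, 1062 and 845 in WT 8h libraries, against 622, 447 and 365 in WT 0h libraries, a difference of 1.16 ± 0.19 (limma adjusted p = 0.000183). Csf1r, the receptor for the survival factor CSF1, rose by 0.46 (0.42 without WT 8h replicate 1, when it lost its call, as it did without WT 0h replicate 2, 0.45, or 3, 0.44), and Fcrls by 0.67, a call lost without WT 8h replicate 1 (0.55) or 2 (0.66) or WT 0h replicate 2 (0.60) or 3 (0.59). P2ry12, a purinergic receptor of resting microglia, had 87.3, 81.5 and 72.7 in WT 8h libraries and 56.3, 75.9 and 66.1 in WT 0h libraries, and did not pass (0.29, adjusted p = 0.463). Tmem119 was low in both groups, at 37.1, 24.99 and 17.5 in WT 8h libraries and 20.97, 32.8 and 34.7 in WT 0h libraries, which overlap. Aif1, the gene of the macrophage protein Iba1, rose by 1.06 on the log2 scale.

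The disease-associated microglia list, genes known to rise in microglia around amyloid plaques, had 4 of 21 members higher and a median of -0.01. These were Cst7 at 0.94, Clec7a, the β-glucan receptor, at 0.68, the receptor kinase Axl at 0.67 and B2m, which the MHC class I list shares. Apoe and Trem2, both on this list, differed by 0.26 (adjusted p = 0.458) and 0.11 (adjusted p = 0.738), and Spp1 by -0.03 (adjusted p = 0.91). Lists of housekeeping machinery held no call in either direction: 36 cytosolic ribosomal protein genes, 29 subunits of oxidative phosphorylation, 23 proteasome subunits, 26 ribosome biogenesis genes and 22 genes of glycolysis. The ribosomal protein genes ranged from -0.18 to 0.18.

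The list with the largest share of members lower after 8 h was that of the cell cycle. Of 38 genes of the cell cycle and DNA replication, 21 were lower and none was higher, where 3.05% of all genes tested were lower. The list median was -0.95 on the log2 scale and 35 of 38 lay below 0. The count of lower members was 13 without WT 8h replicate 3, the library in which many of these genes were lowest, and 10 when only the 6 libraries were fitted.

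Top2a, the DNA topoisomerase of dividing cells, at chr11:98992947-99024199, had 200, 193 and 110 in WT 8h libraries, against 461, 472 and 349 in WT 0h libraries. The groups did not overlap and the difference was -1.38 ± 0.20 (limma adjusted p = 6.76e-05). Mki67, the gene of the proliferation marker Ki-67, had 212, 205 and 95.3 in WT 8h libraries, against 321, 453 and 405 in WT 0h libraries, a difference of -1.27 that became -0.90 without WT 8h replicate 3 and then did not pass (adjusted p = 0.0848). Ccna2, the gene of cyclin A2, was steadier at 73.1, 72.7 and 55.2 in WT 8h libraries, against 157, 144 and 144 in WT 0h libraries (-1.14 ± 0.17, limma adjusted p = 4.78e-05). Rrm2, a subunit of the enzyme that makes deoxyribonucleotides, fell by 1.62 and Tpx2, a spindle factor, by 1.21 on the log2 scale. Rrm2 and Mki67 did not pass when only the 6 libraries were fitted. Not every replication gene fell: Mcm2 had 322, 290 and 396 in WT 8h libraries and 315, 293 and 345 in WT 0h libraries (0.07, adjusted p = 0.843), and Pcna, which also serves in DNA repair, differed by -0.18 (adjusted p = 0.292).

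Ube2c and Ccnb1 had the largest decreases among list members whose sequence before the start held a CCAAT box, and their promoters are shown for that reason. Ube2c, which encodes a ubiquitin-conjugating enzyme of mitotic exit, had 17.5, 29.6 and 10.03 in WT 8h libraries, against 94.3, 59.5 and 56.2 in WT 0h libraries (-1.91 ± 0.35, limma adjusted p = 0.000979). Ccnb1, the gene of cyclin B1, had 62.2, 41.5 and 10.03 in WT 8h libraries, against 144, 100 and 79.3 in WT 0h libraries. Its difference of -1.77 became -1.03 without WT 8h replicate 3 and still passed, but it did not pass when only the 6 libraries were fitted. The sequences are chr2:164769679-164769928 on the plus strand and chr13:100786487-100786736 on the minus strand of GRCm38.p6, from RefSeq, with CCAAT on either strand in capitals.
Ube2c: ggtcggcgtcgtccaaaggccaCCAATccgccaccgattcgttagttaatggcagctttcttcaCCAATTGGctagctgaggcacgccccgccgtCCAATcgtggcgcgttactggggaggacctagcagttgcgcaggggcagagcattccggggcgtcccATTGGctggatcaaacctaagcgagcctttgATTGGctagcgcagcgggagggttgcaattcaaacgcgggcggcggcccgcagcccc
Ccnb1: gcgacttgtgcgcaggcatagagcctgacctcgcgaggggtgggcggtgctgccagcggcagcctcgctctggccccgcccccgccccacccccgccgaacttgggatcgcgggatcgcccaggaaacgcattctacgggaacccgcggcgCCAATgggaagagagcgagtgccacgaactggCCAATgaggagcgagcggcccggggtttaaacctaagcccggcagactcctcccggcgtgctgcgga
The box occurred in the windows of 14 of the 17 lower members that have one (82.4%), in 21 of the 29 tested members that have one (72.4%) and in 37.9% of the windows of all genes.

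The cultures also held RNA of the oligodendrocyte lineage, whose precursors divide. The 11 markers of that lineage summed to 3244 to 3792 in WT 8h libraries and 4930 to 5688 in WT 0h libraries, and 4 of 11 were lower. In WT 2h libraries they summed to 4443 to 4914. The list median was -0.52 between WT 8h and WT 0h libraries. For the same times in libraries labelled PD-1 KO it was 0.10, where the cell cycle median was -0.36. Pdgfra, the receptor of oligodendrocyte precursors, had 533, 471 and 138 in WT 8h libraries, against 960, 792 and 707 in WT 0h libraries (-1.32, adjusted p = 0.0293 by limma). It became -0.70 without WT 8h replicate 3 (adjusted p = 0.307), and also did not pass without WT 0h replicate 1, 2 or 3, at -1.2, -1.34 and -1.42. Olig1, a transcription factor of the lineage, fell by 1.03 on the log2 scale and by 0.64 without that library, when no marker of the list passed, as none did when only the 6 libraries were fitted. Mbp, the gene of myelin basic protein, differed by -0.30 (adjusted p = 0.33). The part of these cells in the cell cycle result was not tested.

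Markers of other cell types gave smaller sums. The 10 astrocyte markers summed to 1835 to 3349 in WT 8h libraries and 2396 to 3923 in WT 0h libraries. The 9 neuron markers summed to 775 to 1047 in WT 8h libraries and 1084 to 1157 in WT 0h libraries, and the 10 ependymal and motile cilia markers to 248 to 565 in WT 8h libraries and 192 to 480 in WT 0h libraries. None of these lists held a call. The 8 fibroblast and vascular markers summed to 391 to 493 in WT 8h libraries and 942 to 1424 in WT 0h libraries. Most of that difference lay in Acta2, the one member of the list that passed, and Dcn and Lum were each at the floor in 2 of the 3 WT 8h libraries, as Lum was in 2 of the 3 WT 0h libraries.

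Acta2, smooth muscle actin, at chr19:34240336-34255585, had 315, 300 and 273 in WT 8h libraries, against 819, 1202 and 768 in WT 0h libraries. The difference was -1.62 ± 0.24 (limma adjusted p = 7.37e-05), and the lowest 0 h library was more than the highest 8 h library. Tagln, which encodes an actin-binding protein of contractile cells, had 163, 147 and 135 in WT 8h libraries, against 449, 656 and 316 in WT 0h libraries (-1.61 ± 0.26). The secreted protein genes Thbs1 and Dkk2, and the scaffold genes Akap12 and Cytip, were also among the largest decreases, at -1.31, -1.42, -1.63 and -1.74, and Thbs1 lost its call without WT 0h replicate 3 (-1.14). Cytip, which regulates integrin adhesion in leukocytes, had 148, 128 and 170 in WT 8h libraries, against 322, 609 and 620 in WT 0h libraries.

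Of 29 cytoskeleton and adhesion genes tested, 8 were lower, none was higher and 21 did not pass, with a median of -0.23 on the log2 scale, and 3 were lower without WT 8h replicate 3. Vim, which encodes the intermediate filament protein vimentin, had 18916, 19315 and 18211 in WT 8h libraries, against 25066, 26204 and 25149 in WT 0h libraries, a difference of -0.44 ± 0.11 (limma adjusted p = 0.0164). Tuba1b, a tubulin gene, had 4861, 4965 and 4768 in WT 8h libraries, against 7013, 6691 and 6997 in WT 0h libraries (-0.50 ± 0.10). Tubulin genes have close copies between which the counting may have split reads. Fscn1, the gene of the actin-bundling protein fascin, fell by 0.60.

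Several cholesterol genes were lower after 8 h. Of 23 genes of cholesterol synthesis and of the regulator SREBP2, 5 were lower and 22 lay below 0, with a median of -0.29. The count was 1 without WT 0h replicate 1, and 3 without WT 8h replicate 3 or without WT 0h replicate 2. Fdps, the gene of farnesyl diphosphate synthase, had 214, 204 and 160 in WT 8h libraries, against 426, 265 and 296 in WT 0h libraries, a difference of -0.75 ± 0.19 (limma adjusted p = 0.0145). It did not pass without WT 8h replicate 3 (-0.62) or WT 0h replicate 1 (-0.55), or in a fit of the compared groups alone. Among targets of the sterol sensor LXR, Nr1h3, the gene of LXRα itself, had 51.3, 61.5 and 55.2 in WT 8h libraries, against 27.5, 20.5 and 26.4 in WT 0h libraries (1.15 ± 0.22, limma adjusted p = 0.00174). Abcg1, a cholesterol exporter, rose by 0.56, a call lost without WT 8h replicate 3 (0.50) or WT 0h replicate 3 (0.45), and 4 of 17 members of the LXR list were higher and 1 lower. The count of higher members was 2 without either of those libraries.

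Stress response genes changed in both directions. Of 29 genes of the integrated and endoplasmic reticulum stress responses, 8 were higher and 4 lower. The higher ones include amino acid transport and the ATF4 and CHOP arm: Slc7a5, a transporter of large amino acids, had 738, 820 and 752 in WT 8h libraries, against 408, 367 and 491 in WT 0h libraries (0.88 ± 0.13, limma adjusted p = 4.6e-05). Ddit3, the gene of CHOP, had 2344, 2091 and 3023 in WT 8h libraries, against 1620, 1298 and 1509 in WT 0h libraries, and rose by 0.74, and Atf4 differed by 0.35 without passing (adjusted p = 0.0588). The 4 that fell encode proteins that fold others inside the endoplasmic reticulum. Hsp90b1, the gene of GRP94, had 3970, 4095 and 4039 in WT 8h libraries, against 6432, 6810 and 6797 in WT 0h libraries (-0.73 ± 0.11), Hspa5, the gene of BiP, fell by 0.51, Sdf2l1 by 0.87 and Creld2 by 0.46. The count of higher members was 4 without WT 8h replicate 3 or without WT 0h replicate 2. The amino acid response element TGATGNAA occurred in the windows of 4 of 7 higher members (57.1%), in 6 of the 25 tested members that have one (24%) and in 4.1% of all. It was not the only motif more frequent in those 7 windows than in all: the core of the cyclic AMP response element, TGACG, occurred in 71.4% of the 7 and 21% of all, the antioxidant response element, TGACNNNGC, in 57.1% and 12.5%, and the hypoxia response element, ACGTG, in 57.1% and 19.7%. Matches of these 3 motifs can overlap each other.

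Cytosolic chaperones and iron genes gave single results. Hspa8, the constitutive heat shock cognate, fell by 0.55 on the log2 scale, and 4 of 20 chaperone genes were lower (1 without WT 8h replicate 3). Slc11a2, the iron transporter DMT1, had 2610, 2729 and 2725 in WT 8h libraries, against 1444, 1331 and 1382 in WT 0h libraries, a difference of 0.96 ± 0.09 (limma adjusted p = 3.61e-08). Steap3, an endosomal ferrireductase that acts before that transporter, fell by 0.79 to 170, 189 and 186 in WT 8h libraries, against 280, 332 and 335 in WT 0h libraries. Among the other large increases, the signalling genes Rassf4 and Ralgds rose by 1.16 and 1.14 on the log2 scale. Nupr1, a stress-induced nuclear protein gene, rose by 1.10, and Bcl2a1a, an anti-apoptotic gene with near-identical copies, by 1.95. Among immediate early genes, which respond within minutes to a stimulus, 1 of 29 was higher at 8 h and 5 were lower, and 1 to 3 were lower when any 1 of the 6 libraries was left out. Fosl2 fell by 0.73, a call lost when only the 6 libraries were fitted, and Fos had 1011, 1088 and 1321 in WT 8h libraries and 777, 1109 and 1254 in WT 0h libraries, which overlap (0.14, adjusted p = 0.671).

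The 2 h libraries show which differences were present earlier. They carry title numbers that run on from those of the 0 h libraries. The difference of 8 h from 2 h therefore cannot be told apart from that between title-number series, while 2 h and 0 h share a series. In WT 2h against WT 0h libraries, 356 genes were higher and 296 lower (4.75% of the genes tested, 2.59% higher and 2.16% lower), and in WT 8h against WT 2h libraries, 392 were higher and 429 lower (5.98%, 2.86% higher and 3.13% lower). These comparisons share libraries with each other and with 8 h against 0 h, so they are given side by side. Both counts rest on the spread shared by all groups: 32 and 36 genes passed when only the 6 libraries of each comparison were fitted. Without WT 2h replicate 2, they were 265 and 280. Without WT 8h replicate 3, 180 genes passed in 8 h against 2 h, and without WT 0h replicate 2, 229 in 2 h against 0 h. Without WT 2h replicate 1, 1324 passed in 8 h against 2 h, and without WT 0h replicate 1, 1116 in 2 h against 0 h.

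The order of times differed between genes. Differences of single genes at either step come from the main fit alone, and were not refitted with a library left out. Ptger4 had its whole difference by 2 h, with 174, 203 and 188 at 0 h, 555, 441 and 516 at 2 h, and 485, 499 and 471 at 8 h, and the difference of 8 h from 2 h was -0.05 (adjusted p = 0.85). Nfkbiz differed by 1.24 between 2 h and 0 h (limma adjusted p = 7.03e-06), and the further 0.18 between 8 h and 2 h did not pass (adjusted p = 0.489). Tnf rose at each step, with a difference of 1.17 between 2 h and 0 h and of 0.52 between 8 h and 2 h, and so did Icam1 (0.86 and 0.70), Tlr2 (0.90 and 0.43) and Ikbke (1.11 and 0.73). Il1b had 19.7, 8.2 and 9.92 at 0 h, 30.6, 12.8 and 13.7 at 2 h, and 73.1, 55.7 and 60.2 at 8 h. It passed in 8 h against 2 h (1.77, limma adjusted p = 0.0019) and not in 2 h against 0 h (0.54, adjusted p = 0.39). Cxcl10 and Tnip3 likewise differed between 8 h and 2 h, by 1.39 and 1.01, and by 0.06 and 0.33 between 2 h and 0 h, where they did not pass. Of the NF-κB list, 9 of 23 members were higher at 2 h than at 0 h, and 8 of 23 higher at 8 h than at 2 h. The 36 cytosolic ribosomal protein genes shifted together at both steps. They differed by 0.33 to 0.67 between 2 h and 0 h, where 10 were higher. Between 8 h and 2 h they differed by -0.55 to -0.26, and 3 were lower.

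Some genes moved back between 2 h and 8 h, Cx3cr1 in part and Fos and Gpr34 to values that overlap those at 0 h. Cx3cr1 had 622, 447 and 365 at 0 h, 1715, 1352 and 1728 at 2 h, and 1262, 1062 and 845 at 8 h, a difference of 1.76 between 2 h and 0 h and of -0.61 between 8 h and 2 h (limma adjusted p = 0.048). Fos dropped and came back, with 543, 388 and 432 at 2 h, and differed by 1.33 ± 0.15 between 8 h and 2 h (limma adjusted p = 8.5e-06). Gpr34, a lipid receptor of microglia, had 561, 379 and 355 at 0 h, 887, 973 and 1058 at 2 h, and 588, 452 and 341 at 8 h. Cell cycle genes were lower mainly at 8 h: 1 of 38 members was lower at 2 h than at 0 h, with a median of -0.06, and 18 of 38 were lower at 8 h than at 2 h, with a median of -0.72. Top2a had 397, 370 and 432 at 2 h, within the range of the 0 h libraries.

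**Figure D4:**
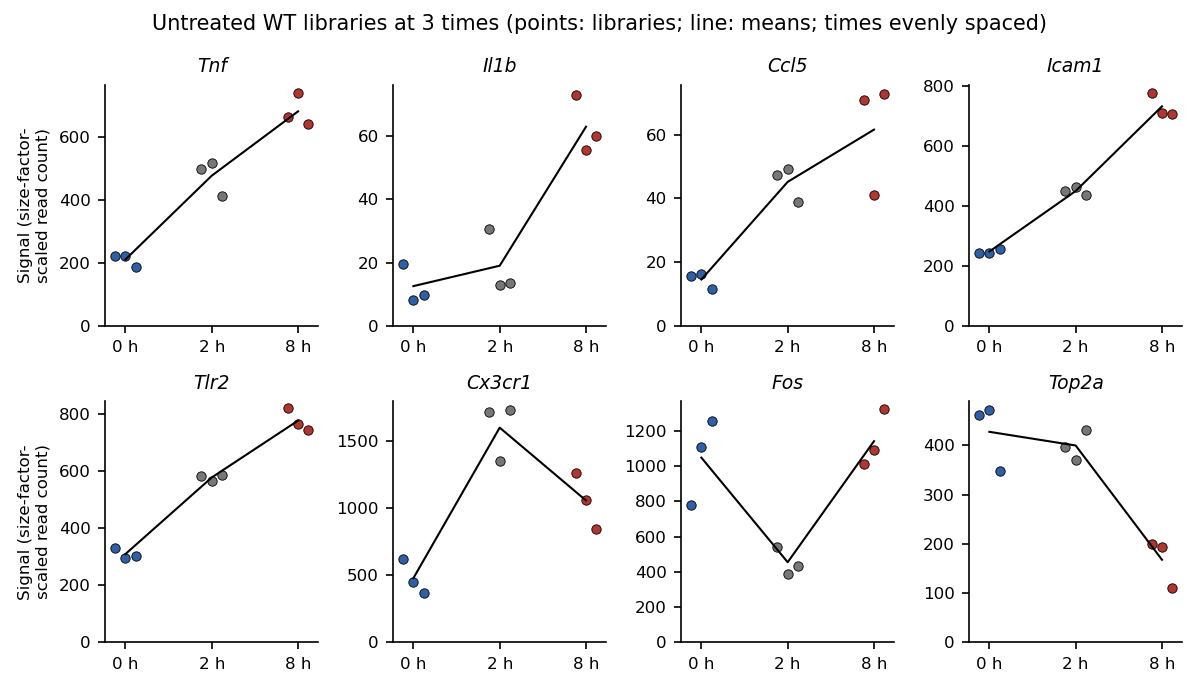
Signal per library (points, n = 3 at each time) and group mean (line) for 8 genes in untreated WT cultures at 0 h, 2 h and 8 h, evenly spaced on the horizontal axis, with vertical axes that start at 0. Tnf, Icam1 and Tlr2 climb at both steps, Il1b climbs mainly between 2 h and 8 h, Cx3cr1 peaks at 2 h, Fos is lowest at 2 h, and Top2a drops between 2 h and 8 h. The step from 2 h to 8 h is also a change of title-number series.

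The same interval in libraries labelled PD-1 KO gives a measure from other libraries, with the same confounding of time and title-number series. There, 206 genes were higher and 246 lower at 8 h than at 0 h (3.29% of the genes tested, 1.5% higher and 1.79% lower). The NF-κB list had 15 of 23 members higher in that comparison also, with a median of 0.69, and Tnf differed by 1.69 in WT libraries and by 1.78 in libraries labelled PD-1 KO. Of the cell cycle genes, 3 of 38 were lower there and 36 lay below 0, with a list median of -0.36. Of the 30 interferon-induced genes, 1 was higher and 1 lower there, and 21 lay below 0. The list median was -0.23, against 0.38 in WT libraries. Pdcd1 was not lower in the libraries labelled PD-1 KO: it was at the floor in all WT libraries at 8 h and 0 h, and had a mean signal of 20.7 ± 3.18 (SD, n = 3) at 8 h and 9.54 ± 2.66 (SD, n = 3) at 0 h in libraries labelled PD-1 KO. The data thus go against the label as far as this transcript is concerned, and a part outside a deletion would still be counted.

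The WT change minus the change in libraries labelled PD-1 KO was tested directly, as an interaction term. It passed for 37 of 13722 genes, 29 with a more positive and 8 with a more negative WT change (0.27% of the genes tested, 0.211% and 0.0583%). The count was 9 without PD-1 KO 0h replicate 2, 11 without WT 8h replicate 3, 13 without WT 0h replicate 1, 18 without WT 0h replicate 2, 23 without PD-1 KO 8h replicate 2 and 67 without PD-1 KO 0h replicate 1, and 9 with voom on the recovered reads. Of the 23 NF-κB list members, Tnip3, Bcl3 and Ikbke passed and 20 did not, among them Icam1 at 0.29 (adjusted p = 0.56). Bcl3 and Ikbke each passed in 9 of the 12 fits that left out 1 library. Neither passed with voom or when only the groups compared were fitted. The interaction term did not pass for the cytokine gene Tnf, at -0.10 (adjusted p = 0.93), or the receptor gene Tlr2, at 0.23 (adjusted p = 0.61). It passed for none of the 38 cell cycle genes and for 2 of the 30 interferon-induced genes. Its median was -0.42 over the cell cycle list, with 27 of 38 below 0. Over the interferon list the median was 0.66, with 26 of 30 above 0.

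Among the named genes reported here, 14 passed, and 4 of them (Tnip3, Neurl3, Cxcl10 and Slco2b1) did so whichever 1 of the 12 libraries was left out. Of these 4, Cxcl10 did not pass with voom on the recovered reads (voom adjusted p = 0.11). Tnip3 rose by 1.34 in WT libraries and differed by 0.14 in libraries labelled PD-1 KO, where its mean signal was 1136 at 8 h and 1035 at 0 h, a difference of 1.2 between the changes (limma adjusted p = 0.0087). The 0 h mean there was above the value of every WT library at either time. Cxcl10 rose by 1.45 in WT libraries, against -0.59 in libraries labelled PD-1 KO, with means of 106 at 8 h and 158 at 0 h there (difference 2.04 ± 0.36, limma adjusted p = 0.012). Neurl3, a gene of a ubiquitin ligase family, had 678, 649 and 652 in WT 8h libraries, against 321, 291 and 258 in WT 0h libraries, and its change differed by 0.99 (limma adjusted p = 0.0031). Slco2b1, an organic anion transporter of microglia, did not pass in WT libraries (0.30) and had a change of -1.01 in libraries labelled PD-1 KO.

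**Figure D5:**
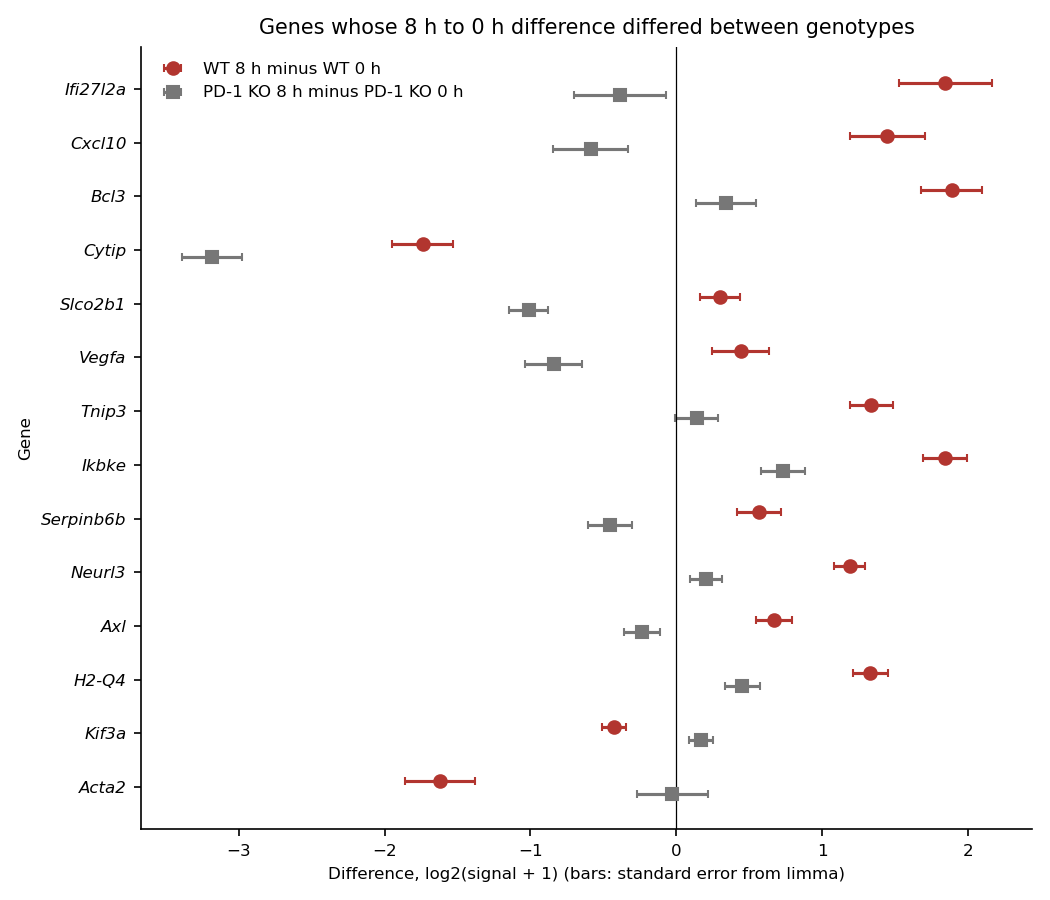
Fitted differences of 8 h minus 0 h on the log2 scale (horizontal axis, bars are standard errors from limma) in WT libraries (red circles) and in libraries labelled PD-1 KO (grey squares), for the 14 named genes reported here whose change differed between the genotype labels. For 12 genes the WT change lies to the right of the other, by up to 2.23 for Ifi27l2a, and for Kif3a and Acta2 it lies to the left, at differences of -0.60 and -1.59.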

How the data were processed

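The deposited table holds a signal for each of 13788 genes in 30 libraries, and every gene reaches at least 12.2 in some library. The authors' signal values are gene counts divided by a size factor per library, with a floor of 1, as the values show: above the floor, values worth up to 5000 reads were whole multiples of 1 step per library in 100% of cases, at a tolerance of 0.05. Genome build mm10 and the tools DESeq2 (no version), R 3.0.2, Partek 6.6 and HISAT 0.1.5 are listed, with no roles, per the submitters' processing notes. The counting program, its annotation and its use of strand are not given in the sources used here.

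Log2 of the signal plus 1 was fitted with 1 mean per group over all 30 libraries (limma 3.58.1, R 4.3.3, moderated test with an intensity trend, 20 residual degrees of freedom), for the 13722 genes reaching 10 in at least 3 libraries. Benjamini-Hochberg adjustment ran over all genes in each of 5 comparisons, with a threshold of 0.05. The step of several libraries is hidden in part by the floor, so a count model planned for raw counts was replaced by this test, and voom on the recovered reads was run as an alternative. The script was tested on simulated data. Reads were recovered only for the genes in the table, and counting error is largest in WT 8h replicate 3.

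The comparison, the gene lists and the named genes were chosen with earlier results of these data known. Named genes are, of the genes past the threshold that also have a mean above the median, no overlap and no library at the floor, the 15 that rose most and the 15 that fell most, up to 4 members of each list, a fixed set, and genes with the largest differences in the other comparisons. Other list members appear with their list, and Rela, Nfkb1, Rel, Ikbkb, Tlr4, Ccl4, Mcm2, Pcna, Atf4, Spp1, Mbp, Jun and the interferon factors were added after their values were seen. Some genes are not reported here. Promoter windows are RefSeq sequences on GRCm38.p6, from 250 bases before to 50 after the start, and the 250 bases before it are printed. Tables were handled with pandas 2.3.3 and figures drawn with matplotlib 3.10.9.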

Additional observations from a re-analysis of the deposited data

Results flagged for a closer look

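The change between 8 h and 0 h differed between WT libraries and libraries labelled PD-1 KO for 14 of the named genes reported here, by the interaction term in limma with Benjamini-Hochberg adjustment over all genes tested. The values are the WT change minus the change in libraries labelled PD-1 KO, on the log2 scale.

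The genes with a more positive WT change were led by interferon-induced Ifi27l2a, at 2.23 (1.84 in WT libraries and -0.38 in libraries labelled PD-1 KO), and Cxcl10, at 2.04. The NF-κB genes Bcl3, Tnip3 and Ikbke differed by 1.55, 1.2 and 1.11. Slco2b1 differed by 1.31, Vegfa, the gene of a vascular growth factor, by 1.28 and the protease inhibitor gene Serpinb6b by 1.02. Neurl3 differed by 0.99, Axl by 0.91 and H2-Q4 by 0.88. Cytip differed by 1.45, with changes of -1.74 in WT libraries and -3.18 in libraries labelled PD-1 KO.

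The WT change was more negative for Kif3a, a kinesin gene, at -0.60, and for Acta2, at -1.59, where the mean signal was 296 at 8 h and 930 at 0 h in WT libraries and 865 at 8 h and 825 at 0 h in libraries labelled PD-1 KO. When each of the 12 libraries was left out in turn, Ifi27l2a passed in 5 of 12 fits (13 of all 24 alternatives), Acta2 in 3 and Vegfa in 2. H2-Q4, Cytip, Serpinb6b and Kif3a each passed in 7 of the 12, and Axl, Bcl3 and Ikbke in 9. Tnip3, Neurl3, Cxcl10 and Slco2b1 passed in all 12.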

How the results depend on the processing

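No paired analysis was possible because the title numbers differ in every library and mark no pairs. Time and title-number series cannot be told apart, and the floor and shallow depth limit genes with few reads, most of all in WT 8h replicate 3. The counts of genes past the threshold moved as follows, and the cause was not tested. For WT 8h against WT 0h (830), they were 440 with only the groups compared, 1795 with array weights, 514 with a minimum fold of 1.5 and 450 with voom on the recovered reads, and 399 to 693 with 1 library left out. For WT 8h against WT 2h (821), they were 36, 3860, 384 and 1251 under the same settings, and 180 to 1324 with 1 left out. For WT 2h against WT 0h (652), they were 32 with only the groups compared, 2434 with array weights and 357 with the minimum fold, and 229 to 1116 with 1 left out. For PD-1 KO 8h against PD-1 KO 0h (452), they were 157, 1105 and 253, and 273 to 607 with 1 left out. For the WT change minus the PD-1 KO change (37), they were 10 with only the groups compared, 252 with array weights and 9 with voom, and 9 to 67 with 1 left out. Of 2303 alternative values for 128 named genes in WT 8h against WT 0h, 2023 kept their direction and their side of the threshold, 271 lost the call, 4 gained one and 5 changed sign. The sign changes were in genes that had not passed: Fos was -0.04 with array weights and -0.06 (without WT 0h replicate 1) to 0.29 with 1 library left out, Tmem119 was -0.44 to 0.08 (without WT 8h replicate 3), and Gpr34 was -0.11 (without WT 8h replicate 1) to 0.29, with -0.04 without WT 0h replicate 3. Of 336 such values for the 14 genes of the genotype difference reported here, 254 held and 82 lost the call. The alternatives for the counts of list members and for these 14 genes were added after seeing the data, and the edgeR quasi-likelihood test on recovered reads was not run.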

Other observations

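Several genes of lipid handling, growth and secretion that belong to no list with a shared direction were among the named genes. Angptl4, which encodes an inhibitor of lipoprotein lipase, differed by 1.2 on the log2 scale between WT 8h and WT 0h libraries and by 1.46 between WT 8h and WT 2h libraries. Its 8 h against 0 h call was lost without WT 8h replicate 1, 2 or 3 or without WT 0h replicate 1, with values of 0.68 to 1.35. Hmga2, a chromatin protein gene of growing cells, had 144, 173 and 183 in WT 8h libraries and 300.1, 355 and 395 in WT 0h libraries, a difference of -1.06 ± 0.19 (limma adjusted p = 0.0006). Zdhhc14, a palmitoyltransferase gene, had 199, 203 and 186 in WT 8h libraries and 351, 363 and 365 in WT 0h libraries (-0.88 ± 0.12). Inpp4b, a phosphoinositide phosphatase gene, had 442, 438 and 486 in WT 8h libraries and 186, 279 and 264 in WT 0h libraries (0.92 ± 0.18).

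The ependymal and motile cilia markers summed to 192 to 480 at 0 h, 144 to 182 at 2 h and 248 to 565 at 8 h, and 4 of 10 were higher in WT 8h than in WT 2h libraries. Of all genes tested, 2.86% were higher in that comparison. It is also one between title-number series, and 36 genes in all passed when only its 6 libraries were fitted. The MHC class II gene H2-Aa had a signal of 283 in WT 2h replicate 1, the floor of 1 and 5.27 in the other 2 WT 2h libraries, and at most 1.65 in WT 8h and WT 0h libraries.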
